A study of Mus musculus with 24 samples.

Results

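The genes described here are 31 mouse genes of fatty acid oxidation and of the peroxisome. They were taken by symbol from the 55421 gene rows of a count table, and were chosen with earlier results of these data known. All 31 were found, and all 31 passed the filter on low counts that left 18046 genes for testing. They were measured in alveolar epithelial type 2 cells (AEC2s), the surfactant-producing progenitors of the alveolus, from Krt8+/+ (WT) mice and from Krt8-/- (KO) mice, which lack keratin 8 in every cell. RNA was taken at day 0 and after 1, 3, or 7 days in 2D culture. During this culture AEC2s lower their markers and pass into a keratin-rich transitional state. Each of the 8 groups of genotype and day held 3 libraries, 1 from each of 3 batches, so there were 24 libraries in all. Per the labels, the replicates are biological ones, and each batch carries a date that both genotypes and all 4 days have in common. Mouse age, strain background, and the number of mice behind a batch were not given in the sources used here. The comparisons ask how these genes change as AEC2s leave their mature state in culture, and whether that change differs without keratin 8.

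Cells burn fatty acids in mitochondria by removing 2 carbons in each turn of a cycle. The carnitine shuttle carries long-chain acyl groups across the inner membrane, acyl-CoA dehydrogenases take the first pair of electrons and pass them to the electron transfer flavoprotein, and hydratase, dehydrogenase, and thiolase steps finish the turn. Peroxisomes shorten very-long-chain and branched acids by a parallel route that makes hydrogen peroxide, which catalase removes. Many of these genes are targets of the nuclear receptor PPAR-alpha and its coactivator PGC-1alpha. AEC2s are known for dense peroxisomes and mitochondria and for a lipid output devoted to surfactant.

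Total counts ranged from 10184439 to 19483386 per library. Krt8 was at 485 to 5092 CPM (counts relative to the TMM-scaled size of the library) in WT libraries and at 21.2 to 47.4 CPM in KO libraries. The summed CPM of 8 AEC2 markers was 260399 to 343111 in WT and 289112 to 349558 in KO libraries on day 0. On day 7 it was 191 to 3186 over both genotypes. The cells on day 0 thus carried their label, and the sum of its markers was far lower on day 7. These markers fell unequally, with WT means going from 186650 to 48.8 CPM for Sftpc and from 39845 to 1291 CPM for Lyz2. In batch 1, the WT libraries had the profile of female mice (Xist 62.4 to 79.5 CPM, 4 Y-linked genes summed at most 0.441 CPM), and the KO libraries had the Y-linked genes (173 to 191 CPM) with Xist at 5.92 to 12 CPM, against at most 2.24 CPM in the KO libraries of batch 3. Sex and genotype therefore cannot be told apart within batch 1. No 2 libraries of a group held identical values.

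Most of the genes were lower in culture than on day 0, in both genotypes. In WT cells, 28 of 31 were lower on day 1 and 0 were higher, while 28.5% of all genes tested were lower and 26.2% higher. By day 3, 23 were lower and 0 higher (27.8% and 26.1% of all genes), and 22 were lower and 2 higher at day 7 (30.2% and 28.6%). The median log2 fold change of the 31 genes was -1.23, -1.24, and -1.40 at days 1, 3, and 7, and the median over all genes tested was 0.00 each time. In KO cells, 24 were lower and 0 higher on day 1 (26.9% and 23.7% of all genes), 22 lower and 1 higher on day 3 (26.6% and 25.4%), and 22 lower and 2 higher on day 7 (29.9% and 28.6%). The KO medians were -1.17, -1.03, and -1.30, with all-gene medians of -0.01, -0.01, and 0.00. The KO gene that was higher on day 3 was Etfa (log2 0.35, SE 0.11; adjusted p = 0.0126), and its call was lost without batch 1 (0.20, adjusted p = 0.287) or batch 3 (0.39, adjusted p = 0.0697). The 3 comparisons within a genotype share the same day 0 libraries. With batch as a block, 3 KO genes were higher on day 3, Cpt2 (0.32, adjusted p = 0.0362) and Acads (0.47, adjusted p = 0.0355) being added. A gene was called higher or lower at an adjusted p under 0.05 in edgeR's quasi-likelihood model, with p values adjusted over the 18046 genes.

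The scale bears on genes near 0. Counts were scaled by TMM, which takes the bulk of genes as unchanged, and the AEC2 markers, surfactant genes among them, take a large share of the day 0 counts. Under library totals alone, the median of all genes moved up by 0.43 to 0.61 on the log2 scale for days against day 0, 20 to 21 WT members were lower on days 1 and 7 and 17 on day 3, and the number higher on days 1, 3, and 7 became 1, 8, and 6. Of all genes called against day 0, 65.7 to 74.7% were then higher. In bulk RNA, fewer cells of a type and less RNA per cell cannot be told apart.

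**Figure D1:**
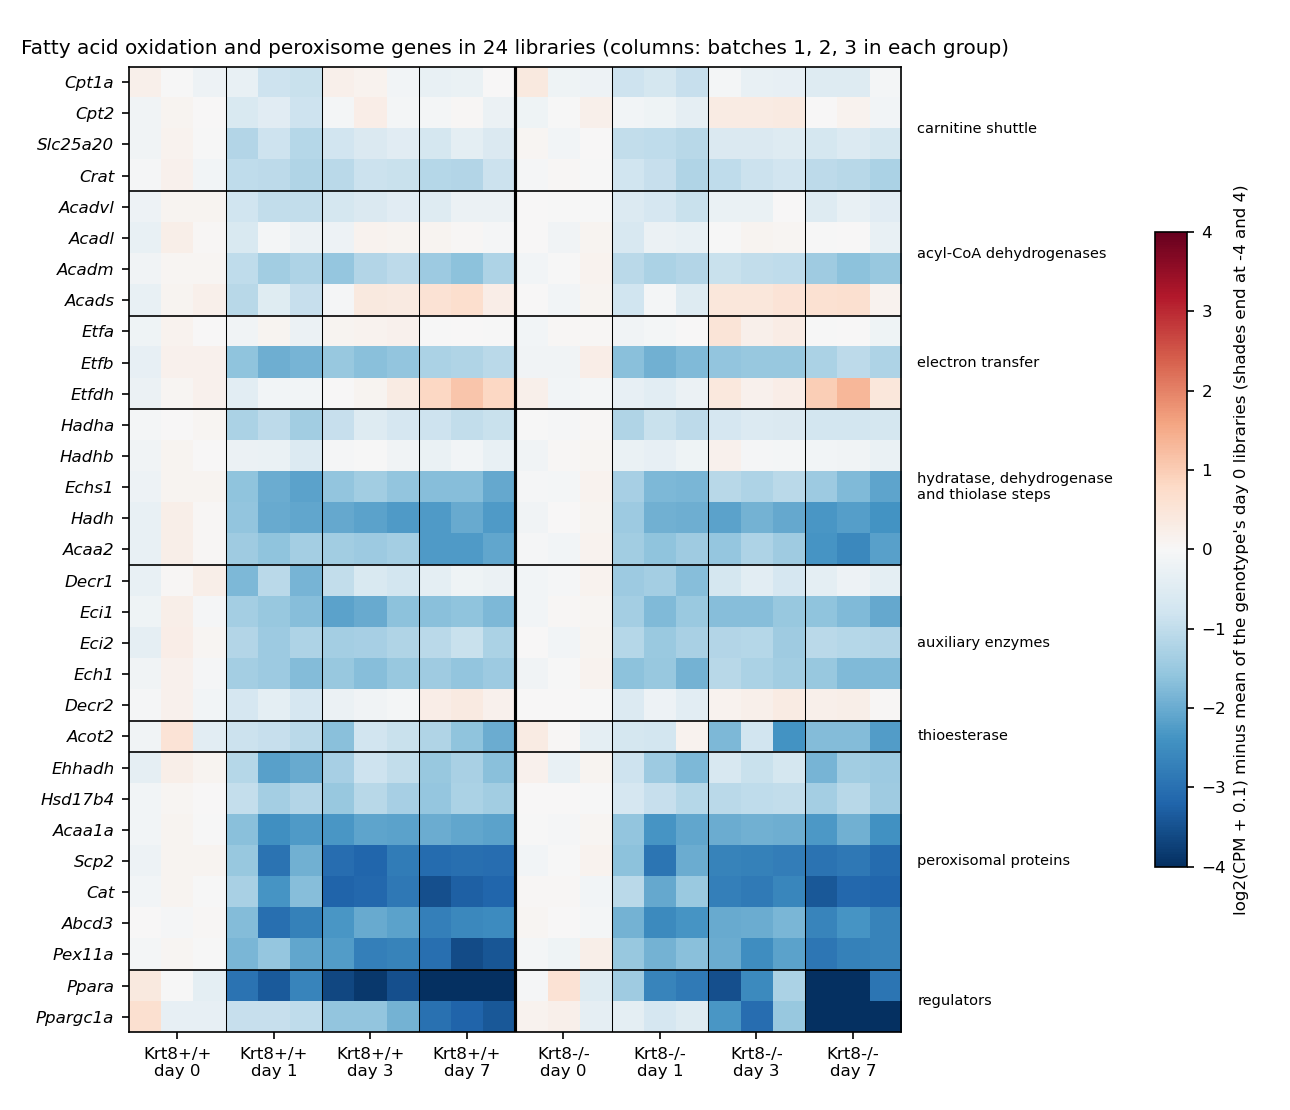
Level of each of the 31 genes (rows, grouped by role) in each of the 24 libraries (columns) as log2(CPM + 0.1) minus the mean of the day 0 libraries of the same genotype. Blue is below day 0 and red above it. The genes grouped as peroxisomal proteins and both regulators are blue in every cultured library, while Etfa, Acadl, and Hadhb stay pale and Etfdh and Acads turn red by day 7.

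The 7 genes grouped as peroxisomal proteins were all lower than on day 0 on every day of culture in both genotypes. Decr2, a peroxisomal reductase, was grouped with the auxiliary enzymes and is not among the 7. In WT cells their median log2 fold change was -1.80 on day 1, -2.20 on day 3, and -2.61 on day 7, with a range of -3.34 to -1.40 on day 7. In KO cells the medians were -1.70, -1.95, and -2.56. Under library totals alone all 7 kept a negative value, and Ehhadh on day 3 was the exception that no longer passed the test, with -0.44 in WT and -0.20 in KO cells. The KO call of Ehhadh on day 3 (-0.77) was also lost without batch 2 (-0.76, adjusted p = 0.102) or batch 3 (-0.74, adjusted p = 0.123).

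Cat encodes catalase, the peroxisomal enzyme that breaks down hydrogen peroxide (chr2:103453849-103485160, minus strand, GRCm38). In WT cells it was at 1667, 1943, and 1748 CPM on day 0 in batches 1 to 3. It was at 729, 349, and 545 CPM after 1 day, 193, 204, and 245 CPM after 3 days, and 155, 186, and 198 CPM after 7 days. No cultured library reached the day 0 level, and the fall was not complete on day 1. The log2 fold change was -1.72 (SE 0.22), -3.06 (SE 0.23), and at last -3.31 (SE 0.24), a 9.90-fold fall (edgeR adjusted p = 4.4e-10). In KO cells Cat went from 1627, 1614, and 1455 CPM on day 0 to 148, 179, and 172 CPM on day 7, a log2 fold change of -3.24 (SE 0.24; adjusted p = 5.8e-10).

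Scp2 encodes sterol carrier protein 2 and, from a separate start site, the peroxisomal thiolase for branched chains (chr4:108043839-108144998, minus strand). Its WT values were 965, 1195, and 1186 CPM on day 0, 389, 142, and 292 after 1 day, 134, 123, and 159 after 3 days, and 131, 138, and 133 after 7 days. The 3 libraries of day 7 lay close together, far below day 0. The fold changes on the log2 scale were -2.02 (SE 0.28), -3.01 (SE 0.29), and -3.05 (SE 0.29; adjusted p = 2.4e-08). Scp2-ps2, a processed copy with 99.6% identity, went from 79.5 CPM on day 0 to 8.37 CPM on day 7, so reads could be split between them, and adding the counts of such copies changed no Scp2 call.

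Pex11a encodes a membrane protein that makes peroxisomes elongate and divide (chr7:79735957-79743131, minus strand). In WT cells it had 43.7, 49.2, and 46.2 CPM on day 0, between 11 and 15.9 after 1 day, 9.84, 6.80, and 7.15 after 3 days, and 5.58, 3.81, and 4.24 after 7 days. It fell at each step without overlap between neighbouring days. The log2 fold change on day 7 was -3.34 (SE 0.21; adjusted p = 9.9e-11), and KO cells had -2.78 (SE 0.21). The step from day 3 to day 7 (-0.80, adjusted p = 0.0195) lost its call when any single batch was left out (adjusted p 0.131 to 0.15).

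Abcd3, the half-transporter that brings acyl-CoAs into the peroxisome, fell from a WT mean of 670 CPM to 129 CPM on day 1 and 109 CPM on day 7 (log2 -2.61, SE 0.23). Acaa1a, the peroxisomal 3-ketoacyl-CoA thiolase, fell from 227 to 54.1 CPM on day 7 (log2 -2.07, SE 0.19). The smallest falls on day 7 among the 7 were those of the bifunctional enzymes Ehhadh (log2 -1.52, SE 0.28) and Hsd17b4 (log2 -1.40, SE 0.14). These were also lower in each of the 3 batches. Acaa1a shares 6.6% of its exon bases with Myd88 on the opposite strand, and whether reads were counted by strand was not given in the sources used here.

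The day 1 libraries of batch 2 stood below those of batches 1 and 3 for several of these genes. Cat was at 349 CPM in WT and 382 CPM in KO cells of batch 2 on day 1, against 545 to 735 CPM in the other 4 libraries of that day. The summed AEC2 markers were 19443 and 18176 CPM in the same 2 libraries, against 79745 to 107071 CPM in the other 4. The part of these markers in the result was not tested. Without batch 2, the day 1 log2 fold changes in WT cells were -1.35 for Cat, -1.58 for Scp2, and -2.09 for Abcd3, and all 3 passed the test.

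**Figure D2:**
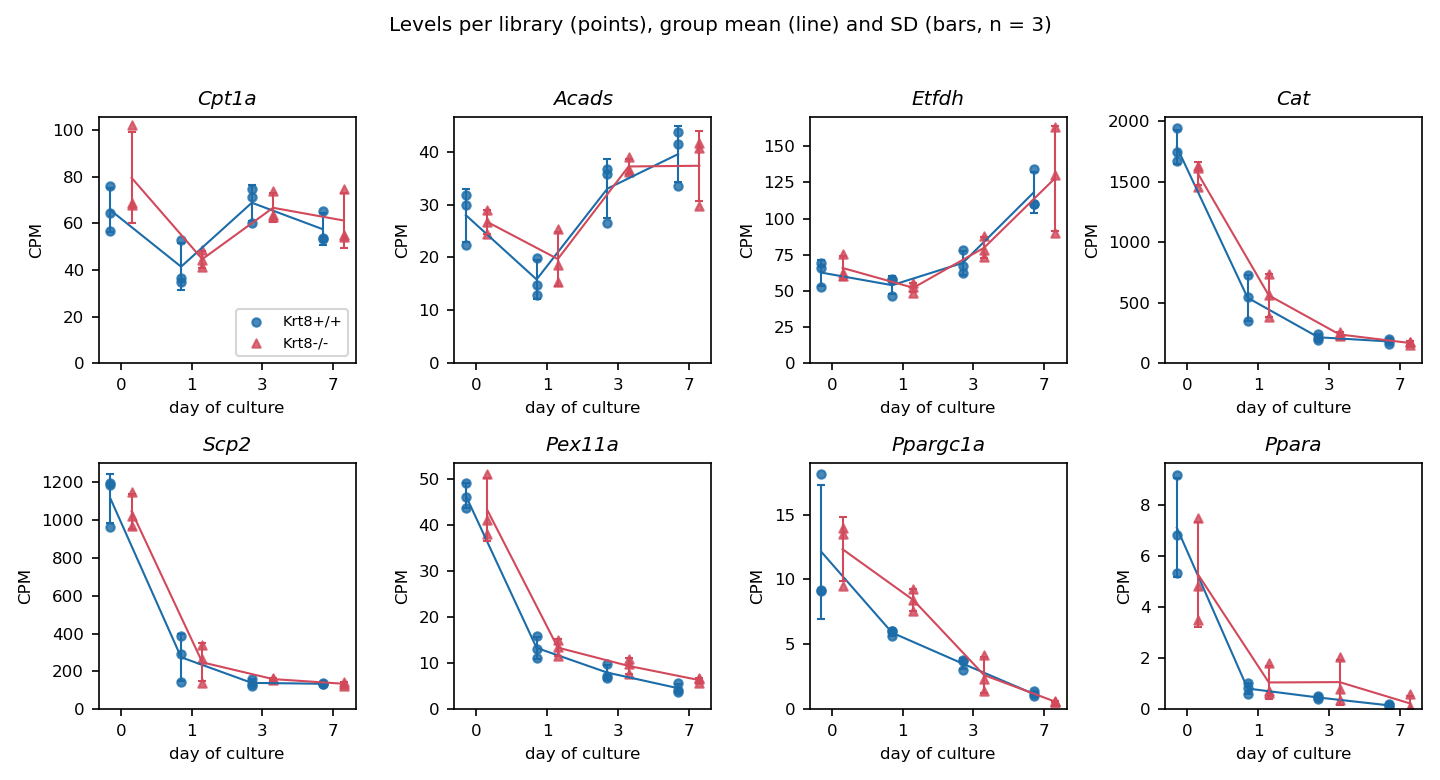
CPM of 8 genes on days 0, 1, 3, and 7 in WT (Krt8+/+, circles) and KO (Krt8-/-, triangles) libraries, with lines through the means and bars for the SD of 3 libraries. Cat, Scp2, Pex11a, Ppargc1a, and Ppara drop away from day 0, Cpt1a and Acads dip on day 1, and Etfdh rises by day 7.

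Both regulators were lower on day 7 in both genotypes. Ppara encodes PPAR-alpha, the fatty acid sensor that switches on oxidation genes (chr15:85734983-85802819, plus strand). It was low throughout, at 9.16, 6.82, and 5.31 CPM in WT cells on day 0, 0.808, 0.585, and 1.02 after 1 day, 0.459, 0.389, and 0.511 after 3 days, and 0.204, 0.166, and 0.0663 after 7 days. The day 7 libraries held 3, 2, and 1 counts of it against 144, 63, and 48 on day 0. The ratio of day 0 to day 7, adjusted for depth, was 52.3 with a 95% counting interval of 23.7 to 144, which covers counting error only (edgeR adjusted p = 8.6e-06). In KO cells the libraries of day 0 had 4.82, 7.49, and 3.48 CPM and those of day 7 had 0, 0.0779, and 0.574 CPM, a ratio of 23.3 with a counting interval of 12.4 to 49.4. The day 1 and day 3 calls of Ppara in KO cells were lost without batch 2 (adjusted p 0.201 and 0.183).

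Ppargc1a encodes PGC-1alpha, the coactivator that drives mitochondrial biogenesis and oxidation (chr5:51454250-51567726, minus strand). WT cells had 18.1, 9.10, and 9.19 CPM on day 0, 6.02, 6.02, and 5.64 after 1 day, 3.74, 3.76, and 3.01 after 3 days, and 1.36, 1.16, and 0.994 after 7 days. The values of different days did not overlap. On the log2 scale it fell by 1.05 (SE 0.31) on day 1, 1.80 (SE 0.32) on day 3, and 3.37 (SE 0.35) on day 7 (adjusted p = 8.2e-08 on day 7). Batch 1 was high on day 0, and without it the day 1 fall of 0.65 did not pass the test (adjusted p = 0.228), nor did the day 1 value under library totals alone (-0.59, adjusted p = 0.134). In KO cells the day 1 value of -0.55 did not pass (adjusted p = 0.147). Over 7 days KO cells went from 13.5, 14.0, and 9.50 CPM to 0.629, 0.545, and 0.574 CPM (log2 -4.37, SE 0.38).

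The other 22 genes, which serve the mitochondrial pathway for the most part, were more mixed. In WT cells 19 were lower on day 1, 14 on day 3, and 13 on day 7, when 2 were higher, while 28.5%, 27.8%, and 30.2% of all genes tested were lower. Their median log2 fold change was -1.07, -0.74, and -0.73 on the 3 days. KO cells had 16, 13, and 13 lower (26.9%, 26.6%, and 29.9% of all genes), with medians of -1, -0.60, and -0.70. Outside the 22, every gene grouped as a peroxisomal protein and both regulators were lower on day 7 in both genotypes. Peroxisomal Decr2 is counted in the 22 and was not lower on day 7 in WT cells (log2 0.27).

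The carnitine shuttle had a fall on day 1 that did not last for its gatekeeper in WT cells. Cpt1a encodes carnitine palmitoyltransferase 1A, the step that commits long-chain fatty acids to oxidation (chr19:3322334-3385733, plus strand). In WT cells it was at 75.8, 64.3, and 56.9 CPM on day 0, 52.9, 36.4, and 34.9 after 1 day, 74.9, 71.5, and 60.1 after 3 days, and 53.3, 53.7, and 65.5 after 7 days. All day 1 libraries were below all day 0 libraries, and the days 3 and 7 libraries overlapped day 0. The log2 fold change was -0.67 (SE 0.18; adjusted p = 0.00471) on day 1, 0.07 (95% CI -0.32 to 0.45) on day 3, and -0.19 (95% CI -0.58 to 0.19) on day 7. The day 1 call was lost without batch 2 (-0.52, adjusted p = 0.116) and under library totals alone (-0.21, adjusted p = 0.377), and the day 7 value turned to 0.26 under library totals. In KO cells, Cpt1a had 102, 68.6, and 68.0 CPM on day 0 and 44.3, 48.4, and 41.2 CPM on day 1 (log2 -0.83, SE 0.18; adjusted p = 8.6e-04), a call lost under library totals alone (-0.34, adjusted p = 0.151). Its KO values of -0.25 (95% CI -0.63 to 0.13) on day 3 and -0.38 (95% CI -0.76 to 0.01) on day 7 did not pass. The KO day 7 value passed without batch 3 (-0.64, edgeR adjusted p = 0.0214) and turned to 0.05 under library totals alone.

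Cpt2, the inner membrane partner of Cpt1a, had the same course in WT cells, with log2 values of -0.63 on day 1 (SE 0.14; adjusted p = 7.2e-04), 0.04 on day 3, and -0.09 on day 7. Its day 1 call was lost under library totals alone (-0.14, adjusted p = 0.417), and in KO cells the day 1 value of -0.21 did not pass (adjusted p = 0.199). Slc25a20, the carnitine-acylcarnitine exchanger, and Crat, which makes short-chain carnitine esters, were lower on all 3 days in WT cells. On day 7, Slc25a20 was at -0.55 (SE 0.12) and Crat at -1.05 (SE 0.13), and on day 3 the sign of Slc25a20 turned under library totals alone (-0.60 to 0.02), where the day 7 call was lost (-0.09, adjusted p = 0.587).

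The 4 acyl-CoA dehydrogenases, which differ in the chain length they accept, did not move together. Acadm, the medium-chain enzyme, was lower on day 7 in WT cells, from 140 to 51.7 CPM (log2 -1.43, SE 0.14; adjusted p = 2.3e-08). Acadvl, the very-long-chain enzyme, was at -0.92 (SE 0.13) on day 1 and at -0.33 (SE 0.12; adjusted p = 0.0261) on day 7, where the call was lost when any 1 batch was left out (adjusted p 0.0569 to 0.215) and the sign turned under library totals alone (0.12). Acadvl shares 42.9% of its exon bases with Dvl2 on the opposite strand, and Dvl2 was at 31.4 CPM on day 0 and 20.2 CPM on day 7. Acadl, the long-chain enzyme, was at a WT mean of 210 CPM on day 0 and 214 CPM on day 7, and its difference had a 95% CI of -0.30 to 0.35 on the log2 scale.

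Acads, the short-chain enzyme (chr5:115110299-115119346, minus strand), was the one gene of the 31 that passed the test in opposite directions on different days in WT cells. It was at 22.3, 29.9, and 31.8 CPM on day 0, 12.9, 19.9, and 14.7 after 1 day, 26.6, 36.7, and 35.7 after 3 days, and 41.4, 43.7, and 33.5 after 7 days. All day 1 libraries were below day 0, and all day 7 libraries were above it. The log2 fold change was -0.82 (SE 0.21; adjusted p = 0.00218) on day 1 and 0.50 (SE 0.20; adjusted p = 0.0381) on day 7. The day 7 call was lost without batch 1 (0.32, adjusted p = 0.271) or batch 2 (0.54, adjusted p = 0.0896), and the day 1 call without batch 3 (-0.66, adjusted p = 0.0604) or under library totals alone (-0.32, adjusted p = 0.239). KO cells had 26.7, 24.5, and 29.0 CPM on day 0 and 40.6, 41.7, and 29.7 CPM on day 7 (log2 0.48, SE 0.20; adjusted p = 0.0471), a call lost without batch 1 (0.41, adjusted p = 0.162) or batch 2 (0.40, adjusted p = 0.198).

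The electron transfer group held the clearest rise and a split between partners. Etfdh encodes the membrane dehydrogenase that hands electrons from the flavoprotein to ubiquinone (chr3:79603788-79629500, minus strand). In WT cells it was at 52.4, 66.0, and 69.5 CPM on day 0, 46.6, 58.0, and 57.2 after 1 day, 62.5, 67.3, and 78.2 after 3 days, and 110, 134, and 110 after 7 days. Only the day 7 libraries stood clear of day 0, at a log2 fold change of 0.92 (95% CI 0.56 to 1.28; adjusted p = 1.2e-04), and library totals alone gave 1.38. KO cells went from 75.2, 60.2, and 62.1 CPM to 130, 163, and 90.2 CPM (log2 0.95, SE 0.17; adjusted p = 7.8e-05). The WT step from day 3 to day 7 (0.77, adjusted p = 0.00782) lost its call without batch 1 or 2 (adjusted p = 0.109 and 0.214).

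Etfa and Etfb encode the alpha and beta subunits of the electron transfer flavoprotein. Etfa stayed at group means of 147, 138, 160, and 146 CPM in WT cells on days 0, 1, 3, and 7, and Etfb went from 190 CPM to 53.9, 62.1, and 82.4 CPM. The log2 fold change of Etfb was -1.82 (SE 0.14) on day 1 and -1.21 (SE 0.14; adjusted p = 3.5e-07) on day 7, and that of Etfa on day 7 had a 95% CI of -0.24 to 0.23. The log2 ratio of Etfb to Etfa within a library was 0.19, 0.39, and 0.50 on day 0, -1.10, -1.69, and -1.26 after 1 day, -1.28, -1.45, and -1.39 after 3 days, and -0.89, -0.88, and -0.72 after 7 days. Every cultured library lay below every day 0 library, and a ratio within a library is free of the scaling between libraries.

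A like split appeared between Hadha and Hadhb, which encode the alpha and beta subunits of the mitochondrial trifunctional protein, the enzyme of the last 3 steps for long chains. Hadha fell from 166 CPM to 70.7 CPM on day 1 and was at 88.7 CPM on day 7 in WT cells (log2 -1.23, SE 0.12, and -0.90, SE 0.11). Hadhb went from 135 to 107 CPM on day 1 (log2 -0.33, SE 0.11; adjusted p = 0.0129, lost without batch 2 or 3 at adjusted p of 0.235 and 0.202, and turned to 0.15 under library totals alone) and to 116 CPM on day 7 (log2 -0.23, SE 0.11; adjusted p = 0.0787). The log2 ratio of Hadha to Hadhb was 0.34, 0.20, and 0.36 on day 0, -0.74, -0.49, and -0.57 after 1 day, -0.58, -0.20, and -0.22 after 3 days, and -0.27, -0.58, and -0.29 after 7 days. In KO cells it was 0.30, 0.07, and 0.14 on day 0 and lay between -0.77 and -0.29 in the cultured libraries. Both pairs of partners were singled out after their values were seen, and no test was made of the ratios. Hadhb has the processed copies Gm13910 and Gm9108 with 99.8% and 97.6% identity, each at most 6.34 CPM in any group mean, and Etfb has Gm45233 at most 0.268 CPM.

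Hadha and Hadhb are transcribed away from each other, with start sites 272 bases apart by RefSeq, so they have the stretch between them in common. It is shown because the 2 genes that share it changed unequally. In GENCODE M21 the outermost start of Hadha is at 30155162 and that of Hadhb at 30155248. By that annotation the window below also covers bases of both genes. The 250 bases before the start of Hadhb, on its own strand (chr5:30155003-30155252, GRCm38.p6), read:
Hadha-Hadhb: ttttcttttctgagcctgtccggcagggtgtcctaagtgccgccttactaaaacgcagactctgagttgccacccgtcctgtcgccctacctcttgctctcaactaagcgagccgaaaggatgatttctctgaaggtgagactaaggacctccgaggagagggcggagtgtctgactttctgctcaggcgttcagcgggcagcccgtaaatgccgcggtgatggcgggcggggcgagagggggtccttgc

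**Figure D3:**
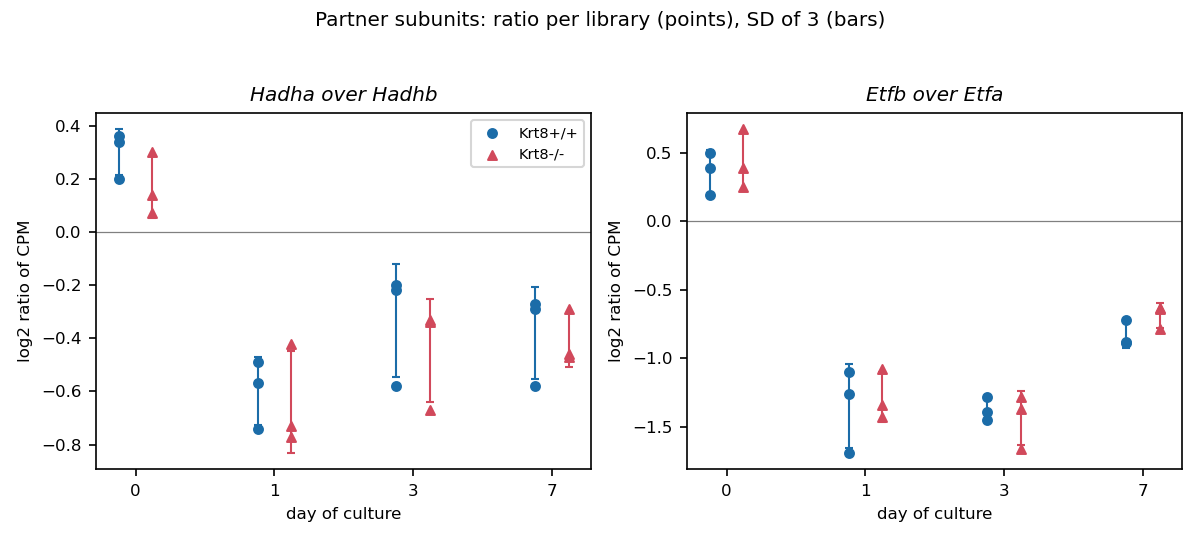
Log2 ratio of CPM of Hadha to Hadhb (left) and of Etfb to Etfa (right) in each library on days 0, 1, 3, and 7, with bars for the SD of 3 libraries in WT (circles) and KO (triangles) cells. All day 0 points lie above 0 and all points from culture lie below 0.

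The other enzymes of the cycle fell and stayed low. Acaa2, the mitochondrial thiolase, went from 280 CPM on day 0 to 101, 105, and 59.9 CPM on days 1, 3, and 7 in WT cells, and the last step was a further fall (log2 -0.81 against day 3, SE 0.13; adjusted p = 7.0e-04). Hadh, the dehydrogenase for shorter chains, was at 198 CPM on day 0 and 43.1 CPM on day 7 (log2 -2.20, SE 0.17). Echs1, the short-chain hydratase, was at 182 and 51.9 CPM (log2 -1.81, SE 0.17). All 3 were lower on each day in both genotypes.

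The auxiliary enzymes prepare unsaturated chains for the cycle. The isomerases Eci1 and Eci2 and the dienoyl-CoA isomerase Ech1 were lower on every day in both genotypes, with WT log2 values of -1.71 (SE 0.16), -1.09 (SE 0.15), and -1.49 (SE 0.14) on day 7. Decr1, the mitochondrial 2,4-dienoyl-CoA reductase, was at 63.2 CPM on day 0, 21.6 after 1 day, 36.5 after 3 days, and 52.0 after 7 days, and its day 7 difference did not pass the test (log2 -0.28, 95% CI -0.65 to 0.09). Decr2, the peroxisomal reductase, was at -0.58 on day 1 (adjusted p = 4.2e-04) and at 0.27 on day 7 (adjusted p = 0.0626), and its day 1 call was lost under library totals alone (-0.10, adjusted p = 0.602) and with only the 6 libraries compared (-0.48, adjusted p = 0.061). The day 7 value passed with batch as a block (adjusted p = 0.0418), in the DESeq2 test (0.28, adjusted p = 0.0342), and under library totals alone (0.72, adjusted p = 3.5e-04).

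Acot2, a mitochondrial thioesterase that frees fatty acids from CoA, fell from 27.1 CPM to 8.73 CPM on day 7 in WT cells (log2 -1.63, SE 0.37; adjusted p = 8.0e-04), and its day 1 and day 3 calls were lost without batch 1 or 2 (adjusted p 0.0682 to 0.248). Acot1, a cytosolic copy with 95.1% identity, fell from 82.6 to 4.30 CPM, so its reads may have been shared with Acot2. With the counts of such copies added together, a setting chosen after the data were seen, the day 1 value of Acot2 in KO cells moved from -0.40 (adjusted p = 0.370) to -1.71 (adjusted p = 1.2e-06), and the day 7 value of Hadhb in WT cells passed the test (-0.25, adjusted p = 0.0469).

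**Figure D4:**
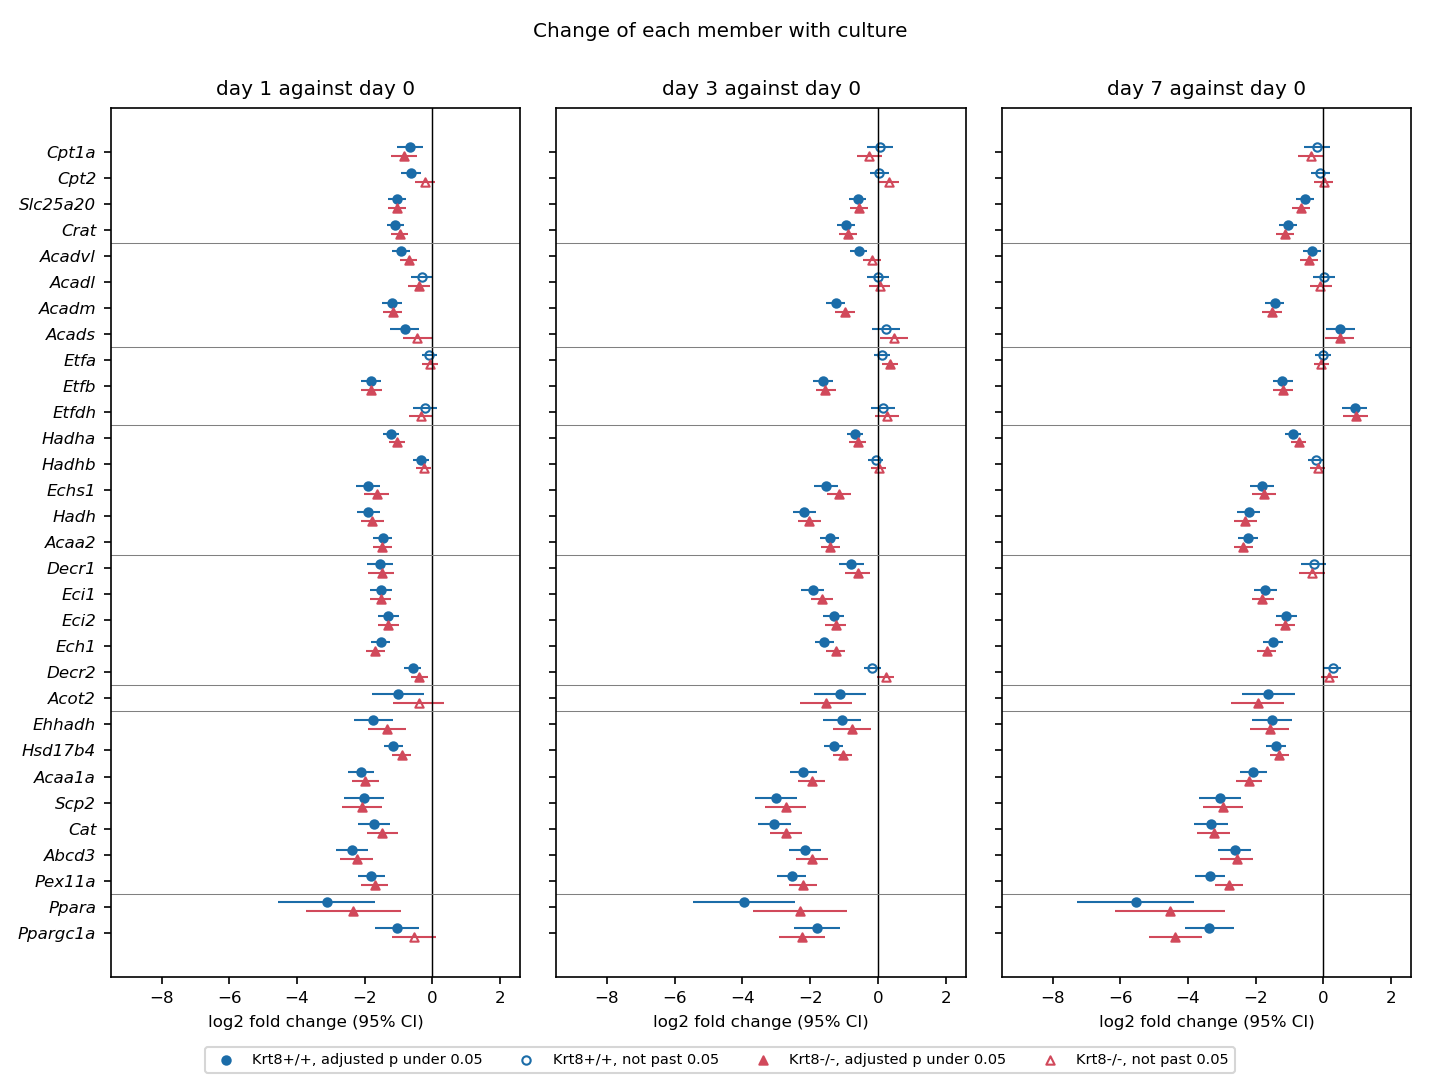
Log2 fold change of each of the 31 genes against day 0 on days 1, 3, and 7 with 95% CI in WT (circles) and KO (triangles) cells. Filled points passed the adjusted p of 0.05, and open points did not. Points of the genes grouped as peroxisomal proteins lie between -3.34 and -1.40 on day 7 in WT cells, and those of Etfdh and Acads lie above 0.

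Between days 1 and 3, some genes of the mitochondrial pathway and peroxisomal Decr2 rose, while Cat went on falling in both genotypes. The all-gene medians were -0.05 in WT and -0.03 in KO cells, and those of the 31 genes 0.20 and 0.27. In WT cells 8 genes were higher on day 3 than on day 1 and 3 were lower (14.4% and 11.9% of all genes tested). The 8 were Cpt1a, Cpt2, Slc25a20, Acadvl, Acads, Hadha, Decr1, and Decr2, with log2 values of 0.35 to 1.06, while the 3 were Cat (-1.34), Scp2 (-0.99), and Pex11a (-0.74). In KO cells 13 were higher and 3 lower (13.4% and 10.2%), the 3 being Acot2, Cat, and Ppargc1a. Without batch 3 the WT count of 8 became 3, and the KO count of 13 became 5, 6, and 2 without batches 1, 2, and 3. The WT calls of Scp2 and Pex11a were lost without batch 3 (adjusted p = 0.111 and 0.0672), that of Scp2 also without batch 1 (adjusted p = 0.194), and that of Pex11a also without batch 2 (adjusted p = 0.187).

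From day 3 to day 7 little changed. In WT cells 2 genes were higher, Etfdh and Decr2, and 3 lower, Acaa2, Pex11a, and Ppargc1a (3.11% and 3.47% of all genes). With batch as a block the WT genes higher were 3, Decr1 being added (0.51, adjusted p = 0.0416). In KO cells 1 was higher, Etfdh, and 6 lower, Acadm, Etfa, Echs1, Acaa2, Ech1, and Ppargc1a (4.4% and 6.15%). These counts were small and moved when a batch was left out, with 2 or 3 in place of the 6. The WT call of Decr2 was lost without any single batch (adjusted p 0.135 to 0.314), and that of Ppargc1a without batch 1 or 2 (adjusted p = 0.0905 and 0.0971). Medians were -0.11 and -0.25, against -0.01 and 0.00 for all genes. Under library totals alone, 64.9 to 69% of all calls between days 1 and 3 and 23.9 to 24.6% of those between days 3 and 7 were in the higher direction.

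Per length, catalase led the genes on day 0. Length-scaled levels (TPM, from counts divided by exon length and scaled to a constant total per library) put Cat first at 1153 ± 88.1 (SD, n = 3) in WT cells on day 0, ahead of Scp2 (538 ± 4.33), Acaa2 (309 ± 27.1), Etfb (273 ± 22.0), and Acadl (175 ± 15). The ranges of mean ± SD overlapped for Acaa2 and Etfb, and among Acadl, Abcd3 (172 ± 21.0), and Hsd17b4 (159 ± 9.56). They also overlapped for Ppargc1a (3.22 ± 1.79) and Ppara (3.20 ± 1.25), which were last. On day 7 the order was Acadl (340 ± 10.4), Etfa (254 ± 6.39), Etfb (226 ± 20.3), and Cat (220 ± 31.6). The range of mean ± SD of Cat overlapped those of Etfa and Etfb. TPM is set against the whole of a library, so it is not free of the marker share on day 0. Exon length joined all annotated exons of a gene, for instance 8286 bases for Echs1 and 2005 for Acadl. It can exceed the length of any 1 transcript and then lowers the level, so the order of the genes depends on the annotation too.

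Loss of Krt8 did not give a difference that passed the test for any of the 31 genes. The number past the threshold was 0 on day 0 (0.0277% of all genes), 0 on day 1 (0.0166%), 0 on day 3 (0.0166%), and 0 on day 7 (0.0166%). At an unadjusted p under 0.05 there were 0, 1, 4, and 2 genes on the 4 days, against 2.65%, 3.54%, 2.50%, and 1.41% of all genes tested, and DESeq2 called 0 on each day. In the joint test of whether the genotype difference changes with day, 0 passed (0.00554% of all genes), and 4 had an unadjusted p under 0.05 (1.49% of all genes). Leaving out batch 1, in which sex went with genotype, also gave 0 on each day. The median difference over the 31 genes, KO minus WT on the log2 scale, was -0.01, 0.09, 0.17, and -0.06.

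The intervals bound the differences for single genes, and those of genes named for the smallest p are not adjusted for that choice. On day 0 the smallest p belonged to Cpt1a, at 79.4 CPM in KO and 65.7 CPM in WT cells, a log2 difference of 0.27 with a 95% CI of -0.11 to 0.66 (edgeR unadjusted p = 0.151, adjusted p = 1). On day 1 it belonged to Cpt2, at 39.2, 37.2, and 32.6 CPM in KO and 26.3, 29.3, and 22.5 CPM in WT cells. The difference was 0.48 (95% CI 0.19 to 0.77; edgeR unadjusted p = 0.0023, adjusted p = 1). On day 3 it belonged to Acadvl, at 114, 114, and 139 CPM in KO and 86.6, 94.2, and 103 CPM in WT cells, a difference of 0.37 (95% CI 0.12 to 0.63; edgeR unadjusted p = 0.00673, adjusted p = 1). On day 7 it belonged to Ppargc1a, at 0.629, 0.545, and 0.574 CPM in KO and 1.36, 1.16, and 0.994 CPM in WT cells, a difference of -0.99 (95% CI -1.79 to -0.19; edgeR unadjusted p = 0.0176, adjusted p = 1). For Cat the interval was -0.64 to 0.26 on day 0 and -0.56 to 0.34 on day 7.

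**Figure D5:**
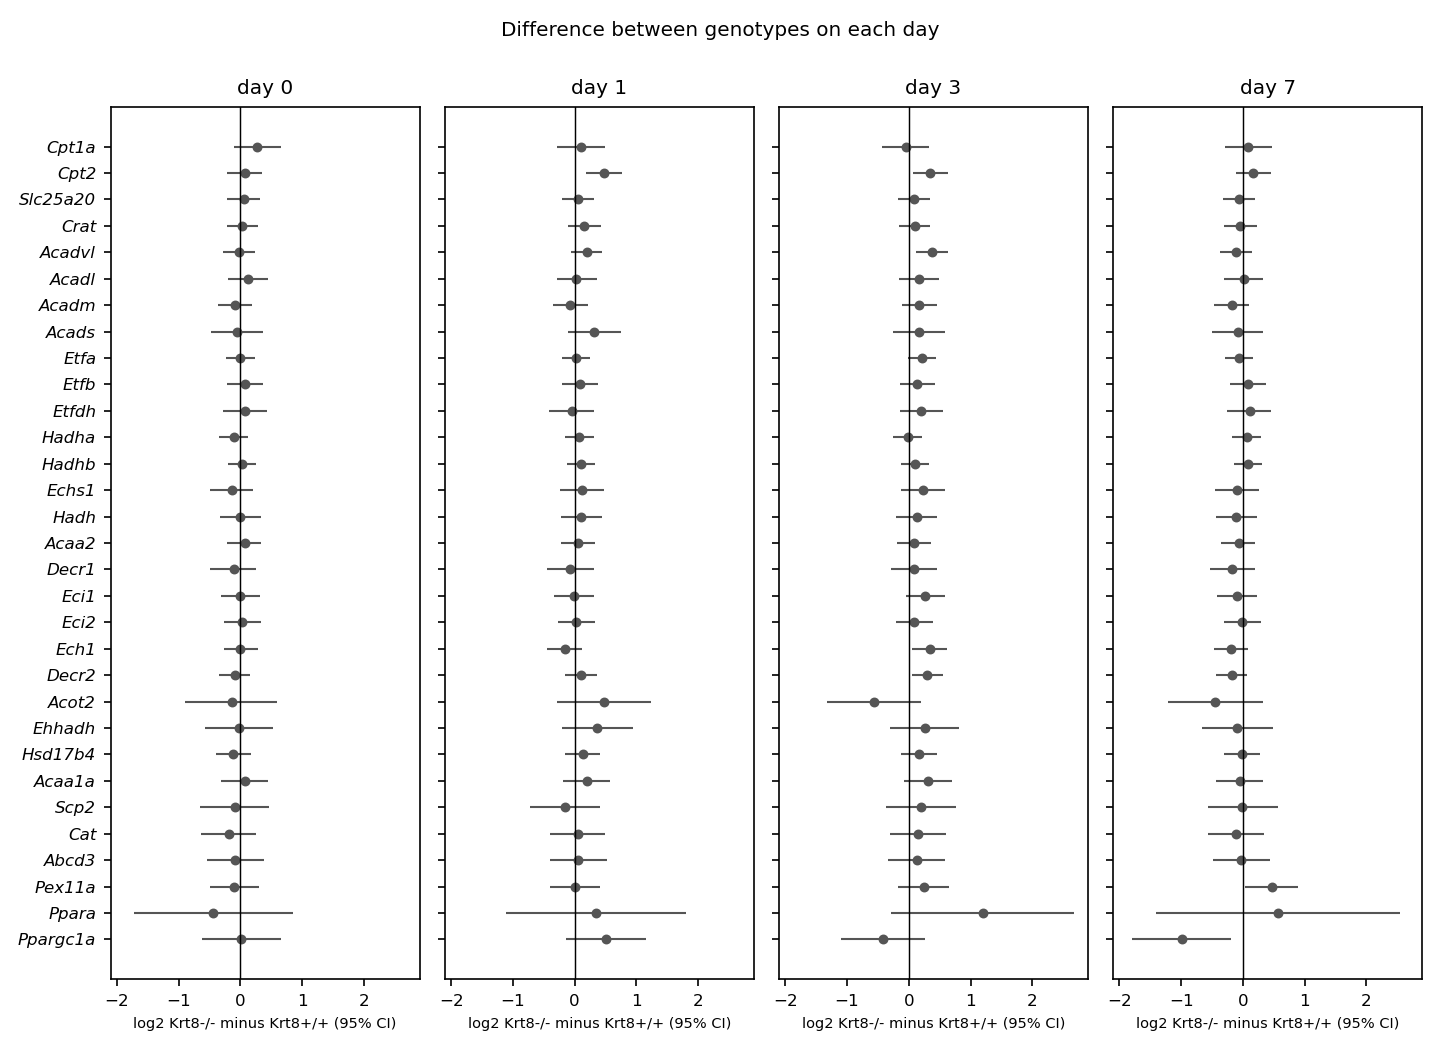
Log2 difference of KO (Krt8-/-) minus WT (Krt8+/+) cells for each of the 31 genes on days 0, 1, 3, and 7, with 95% CI. No gene passed the adjusted p of 0.05 on any day, and the widest intervals are those of the low-count gene Ppara.

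Genes around the pathway were taken from fixed lists, whose counts stand against 30.2% of all genes lower and 28.6% higher on day 7 in WT cells. Of 14 genes for fatty acid import and activation, 11 were lower and 1 higher on day 7 in WT cells (median log2 -2.26). Among them Cd36, the fatty acid translocase, went from 2558 to 37.2 CPM (log2 -6.10, SE 0.92; adjusted p = 9.6e-06), and Fabp5, a fatty acid binding protein, from 1352 to 70.8 CPM (log2 -4.26, SE 0.47). Slc27a2, a very-long-chain acyl-CoA synthetase, had 319 counts over the 3 libraries of day 0 and 2 on day 7, a ratio of 196 with a 95% counting interval of 53.9 to 1628.

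Of 15 genes of peroxisome biogenesis, 10 were lower and 1 higher (median -0.96), led by Pex3, which starts the membrane of new peroxisomes (82.6 to 21.9 CPM; log2 -1.91, SE 0.14), and followed by Pex7 (log2 -1.40, SE 0.16) and Pex10 (log2 -1.38, SE 0.24). Of 31 tested genes for other peroxisomal enzymes and transporters, 16 were lower and 4 higher (median -0.68). Acoxl, an acyl-CoA oxidase-like gene, had 21631 counts on day 0 and 0 on day 7 in WT cells, which with a floor of 3 counts over the group is at least 8874-fold lower. In the opposite direction, Ephx2, the soluble epoxide hydrolase, went from 9 to 389 counts (ratio 35.1, counting interval 18.3 to 77.4) and Acot4, a peroxisomal thioesterase, from 1 to 62 counts (ratio 50.4, counting interval 8.71 to 2021).

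Of 24 other acyl-CoA enzymes, for the most part but not all mitochondrial, 19 were lower and 1 higher (median -1.21). Ivd, of leucine breakdown, was at -2.33 (SE 0.28), the thioesterase Acot7 at -2.21 (SE 0.17), and the thioesterase Acot9 at 2.06 (SE 0.17; 42.8 to 178 CPM). Of 17 genes of the citric acid cycle, which takes up the acetyl-CoA, 8 were lower and 4 higher (median -0.22), where 30.2% and 28.6% of all genes were lower and higher. Ogdh was at -1.34 (SE 0.19) and Suclg1 at -0.90 (SE 0.12), while Cs, citrate synthase, rose from 207 to 355 CPM (log2 0.78, SE 0.10). Under library totals alone the citric acid cycle count turned to 2 lower and 8 higher.

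Of 11 genes of malonyl-CoA and energy control, 7 were lower and 2 higher (median -1.09). Malonyl-CoA is the inhibitor of Cpt1a, and both carboxylases that make it were lower, Acaca at 159 and 18.1 CPM (log2 -3.13, SE 0.26) and Acacb with 606 and 18 counts (ratio 41.4, counting interval 26.0 to 70.4). Prkab2, a subunit of AMP-activated kinase, rose from 5.72 to 23.4 CPM (log2 2.02, SE 0.35). Of 14 tested nuclear receptors and coregulators, 7 were lower and 2 higher (median -0.51). They included Lpin1 (77.0 to 4.98 CPM), Ppargc1b, the sister of Ppargc1a (147 to 17 counts), and Esrrg (56 to 8 counts).

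Of 16 tested PPAR target genes outside oxidation, 9 were lower and 5 higher (median -1.46), again beside 30.2% and 28.6% of all genes. Plin5, a lipid droplet protein, went from 257 to 13 counts (ratio 24.3, counting interval 14.0 to 46.3). Fgf21, a hormone of fasting and stress, had 0 counts on day 0 and 29 on day 7, which is at least 7.85-fold higher. In KO cells the corresponding counts of Plin5 were 323 and 20, and Fgf21 was at least 11.4-fold higher.

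Promoters were searched for the PPAR motif, since PPAR-alpha binds, with its partner RXR, 2 half-sites of AGGTCA set 1 base apart. The window was the 250 bases before the start, read on both strands, with at most 2 of 12 bases differing. The tables of RefSeq held 28 such windows for 27 of the 31 genes, and 3 windows (10.7%) held a match, against 1063 of 32851 windows of all genes (3.24%). The 3 belong to Cat and Echs1, which fell on every day, and to Etfa, which did not pass the test against day 0 on any day in WT cells. They are shown with the match in capitals, each on the strand of its gene in GRCm38.p6, at chr2:103485330-103485372, chr7:140116477-140116519, and chr9:55512293-55512335, and a match in letters is not a bound site:
Cat: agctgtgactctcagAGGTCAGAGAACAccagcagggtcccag
Echs1: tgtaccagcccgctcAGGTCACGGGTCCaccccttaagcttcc
Etfa: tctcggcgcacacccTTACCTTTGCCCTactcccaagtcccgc

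Markers of other cells moved with the days. The summed CPM of 9 fibroblast markers was 301 to 1013 in WT libraries on day 0, 155 to 275 after 1 day, 1365 to 2316 after 3 days, and 1893 to 3903 after 7 days, and no marker was at 0. These markers did not move together in WT cells between days 0 and 7. Means rose for Acta2 (14 to 1678 CPM), Col1a1 (53.9 to 522), Col1a2 (66.2 to 557), Pdgfra, Pdgfrb, and Postn. Those of Col3a1 (236 to 80.3), Dcn (211 to 18.5), and Lum (3.44 to 1.08) fell. The 6 club or ciliated cell markers were at 5816 to 11932 CPM in WT and 14238 to 19606 CPM in KO libraries on day 0, and at 16.6 to 36.3 CPM on day 7 over both genotypes. The 10 macrophage markers had 7.16 to 425 CPM over all libraries, the 7 endothelial markers at most 31.2 CPM (Emcn at 0 in WT cells on days 1, 3, and 7), and the 7 lymphocyte or neutrophil markers at most 12.7 CPM. The 8 AEC1 markers summed to 3295 to 3847 CPM on day 0 and 2581 to 4440 CPM on day 7 in WT cells, and the 8 transitional markers to 1253 to 1454 and 10859 to 17339 CPM. Within the AEC1 list, WT means fell from day 0 to day 7 for Ager (1909 to 984 CPM) and Aqp5 (699 to 102). They rose for Akap5 (9.4 to 309), Pdpn (3.13 to 81.9), Rtkn2 (12 to 97.8), Hopx (43.2 to 156), Cav1 (75.8 to 336), and Emp2 (876 to 1306). The 5 adipocyte markers, from a cell rich in these enzymes, stayed at or under 0.407 CPM in every library, with Lep at 0 in every group. The part of fibroblast, airway, and other markers in the changes described was not tested.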

How the data were processed

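RNA of mouse AEC2s was sequenced in 24 libraries. Per the labels, the submitters' processing notes name cutadapt 2.3, STAR 2.7.8a, RSEM 1.3.3, and GRCm38, without role or order. The authors deposited 1 table of expected counts per gene, not normalized and rounded to whole numbers, in which genes of identical sequence have equal counts. How reads that match several places were counted was not given in the sources used here. Rows without a gene identifier (5 of 55426) held 0 counts. Symbols and positions were from GENCODE M21 (GRCm38), and 55154 of 55421 identifiers were matched.

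Counts were analysed in R 4.3.3 with edgeR 4.0.16, with filterByExpr (min.count 10, min.total.count 15), TMM scaling, and 1 quasi-likelihood model of 8 groups (16 residual degrees of freedom). P values were adjusted by Benjamini-Hochberg over 18046 genes with a threshold of 0.05. The labels give same-numbered libraries 1 batch date, so the numbers pair libraries. The residuals of same-numbered libraries, after removal of group means, correlated at -0.0345 to 0.383 between days (30 pairs) and at 0.0573 to 0.548 between genotypes (12 pairs). The labels call the replicates biological, and the animals behind them were not given in the sources used here, so p values measure the spread between these libraries. Intervals of ratios are 95% counting intervals, and a group at 0 was set to a floor of 3 counts in total. The step was tested on simulated data.

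Alternatives were DESeq2 size factors, library totals alone, no filter, the DESeq2 1.42.0 test, a block for batch, leaving out 1 batch at a time, only the 6 libraries compared, and near-identical copies (at least 95% identity) summed, the last chosen after the data were seen. The genes, lists, roles, and tests were chosen with earlier results of these data known. Values in every library are given for Cpt1a, Ppara, and Ppargc1a, for the 5 genes with the largest rise and the 5 with the largest fall past the threshold on day 7 in WT cells, and for genes past the threshold in opposite directions on 2 days. Only Etfdh and Acads had such a rise. Between genotypes the gene with the smallest p on a day is named, and from each further list up to 3 genes. 1 gene that this rule named is not reported here. Promoters were from RefSeq (GRCm38.p6). A planned search for peroxisomal targeting signals in protein sequences was not done.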

Additional observations from a re-analysis of the deposited data

How the results depend on the processing

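There were 185 called and 44 uncalled differences of single genes, each recomputed under 10 alternatives. Over the combinations of a called difference and an alternative, 1682 kept direction and call, 160 lost the call, and 8 changed sign. Over those of an uncalled difference, 371 kept direction and stayed uncalled, 27 passed, and 42 changed sign. No genotype count left 0 under any alternative. The cause of the changes was not tested. Under library totals alone, the counts of members higher against day 0 were 1, 8, and 6 on days 1, 3, and 7 in WT and 1, 8, and 6 in KO cells. The WT count from day 1 to day 3 was 13 higher, that from day 3 to day 7 was 1 higher, and in KO cells 13 were lower from day 3 to day 7. With only the 6 libraries compared, WT counts were 3 higher and 1 lower from day 1 to day 3 and 1 higher from day 3 to day 7, and KO counts 2 higher on day 3 and 0 higher from day 3 to day 7. Without the filter, the WT count higher from day 3 to day 7 was 1, and KO counts higher were 0 on day 3 and 1 on day 7. The DESeq2 test gave 3 higher on day 3 and 5 lower from day 1 to day 3 in KO cells. The replicate block gave 3 higher on day 3 in KO cells (Cpt2 and Acads added) and 3 higher from day 3 to day 7 in WT cells (Decr1 added, 0.51, adjusted p = 0.0416). It also called Decr2 on day 7 in WT (adjusted p = 0.0418) and Acads on day 1 in KO cells (-0.46, adjusted p = 0.0405), and changed no other call of the 31 genes. With each batch left out in turn, lower counts against day 0 were 25 to 26, 21 to 23, and 21 in WT and 21 to 22, 20, and 21 to 22 in KO cells. Higher counts were 1 to 2 on day 7 in WT, 0 to 1 on day 3 and 1 to 2 on day 7 in KO cells, 3 to 9 in WT and 2 to 6 in KO cells from day 1 to day 3, and 0 to 1 from day 3 to day 7 in both. Lower counts were 2 in WT and 2 to 4 in KO cells from day 1 to day 3, and 1 to 2 in WT and 2 to 3 in KO cells from day 3 to day 7.

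Values whose sign changed under library totals alone were, in WT cells on day 1, Acadl 0.20, Etfa 0.40, Etfdh 0.27, and Hadhb 0.15. On day 3 they were Slc25a20 0.02, Acadvl 0.04, Hadhb 0.55, and Decr2 0.45, and on day 7 Cpt1a 0.26, Cpt2 0.37, Acadvl 0.12, Etfa 0.45, Hadhb 0.23, and Decr1 0.18. In KO cells on day 1 they were Cpt2 0.28, Acadl 0.11, Acads 0.07, Etfa 0.42, Etfdh 0.15, Hadhb 0.24, Decr2 0.11, and Acot2 0.08. On day 3 they were Cpt1a 0.31, Slc25a20 0.01, and Acadvl 0.39, and on day 7 Cpt1a 0.05, Acadvl 0.01, Acadl 0.34, Etfa 0.37, Hadhb 0.26, and Decr1 0.09. Etfa on day 7 in WT cells was at 0.00 with DESeq2 size factors, 0.03 without the filter, and 0.01 in the DESeq2 test. With only the 6 libraries compared, Etfa on day 1 was at 0.01 in WT and 0.01 in KO cells, and Cpt2 on day 7 in KO cells at -0.01. Leaving out batches 1, 2, and 3 gave signs on both sides of 0 as follows, from the lowest to the highest value. In WT cells, these were Acadl on day 3 (-0.03 to 0.15) and day 7 (-0.14 to 0.20), Hadhb and Decr2 on day 3 (-0.14 to 0.05 and -0.24 to 0.01), and Etfa on day 7 (-0.07 to 0.12). In KO cells, they were Etfa on day 1 (-0.09 to 0.05), Hadhb on day 3 (-0.13 to 0.13), and Cpt2 (-0.08 to 0.17), Acadl (-0.15 to 0.07), and Etfa (-0.12 to 0.01) on day 7. Ppara, at 6 counts over the 3 WT libraries of day 7, is the one of the 31 genes that depth limits most.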
